A study of Rattus norvegicus with 6 samples.

Results

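The 8 genes studied here are best known from myeloid blood cells and were followed through cultures of rat bone marrow mesenchymal stem cells. They were Lyz2, Cd14, Mpo, Csf1r, Cd68, Cd74, Ptprc and Adgre1, all 8 of which were found by symbol among the 21026 rows of the count table. They were picked by name with their counts in these libraries already known, so their levels and changes are given as a description and without a test. Mesenchymal stem cells are fibroblast-like marrow cells that stick to plastic and give rise to osteoblasts, adipocytes and chondrocytes. Polyadenylated RNA was sequenced from 3 libraries labelled young and 3 labelled aged, numbered 1 to 3 within each group as biological replicates. No strain, sex, age, passage or sorting step was given for either group, nor was it stated that the libraries came from separate animals, so p-values reflect library-to-library spread that may be technical.

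Marrow cultured on plastic begins as a mixture of stromal cells and blood cells, and macrophages in particular can adhere beside the stromal cells. Ptprc encodes CD45, the phosphatase on the surface of nearly all nucleated blood cells, and its absence is a usual criterion for a mesenchymal stem cell culture. Adgre1 encodes F4/80, Csf1r the receptor for the macrophage growth factors CSF1 and IL-34, and Cd68 a lysosomal membrane glycoprotein abundant in macrophages. Lyz2 encodes the bacteria-digesting enzyme lysozyme, Mpo the peroxidase of neutrophil granules, Cd14 the co-receptor for bacterial lipopolysaccharide (LPS), and Cd74 the invariant chain that guides MHC class II molecules. RNA from bulk cultures cannot tell fewer cells of a type from less RNA per cell.

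Total counts lay between 34638874 and 42479626 per library. A library with 0 counts of a gene could still hold up to 3, which is 0.0688 to 0.0840 CPM (counts made comparable across libraries with TMM factors, the trimmed mean of M-values). All such limits and the intervals below cover counting error only. Young replicate 2 stood apart from its group: its counts differed from those of young replicates 1 and 3 with a chi-square per gene of 11.1 and 9.13, against 3.16 to 3.64 for every other pair within a group. Of the listed stromal genes 16 of 16 passed the filter on low counts, among them Col1a1 at 19586 ± 202 CPM in young and 10932 ± 41.6 in aged cells (SD, n = 3 each). The niche genes Lepr and Vcam1 were low, with no library above 28 and 37 counts.

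The 8 genes did not behave as a block. Lyz2, Mpo, Cd14 and Cd68 were lower in aged cells, Csf1r was far higher, and Cd74, Ptprc and Adgre1 were at or near the detection limit in both groups. The first 5 passed the low-count filter (edgeR filterByExpr), and the other 3 did not. Lyz2, Mpo and Csf1r passed it only through the libraries of the group where they were high, so the filter itself favours a difference in them. The same holds for Ncf1, Ms4a7, Cd53, Ngp, Lpo, Oscar, RT1-Bb, Ciita, Lck, Blnk, Tek, Pf4, Csf2 and Csf2rb below, whose values are a description and carry no p. It holds too for Epor and Jchain, whose values likewise carry no p. In all 5 the libraries of the groups did not overlap in CPM, as was so for 87.5% of the 14273 genes tested. Of all tested genes 86.4% were called different (adjusted p under 0.05 in the quasi-likelihood test of edgeR, Benjamini-Hochberg method), 44.7% higher and 41.8% lower in aged cells, and the median log2 change of all tested genes was 0.05. A gene that differs is therefore the rule in this comparison, and counts of called genes in the lists below are read against these shares. When libraries were scaled by size alone, log2 changes rose by a median of 0.34 and 62.3% rather than 51.7% of called genes were higher.

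**Figure D1:**
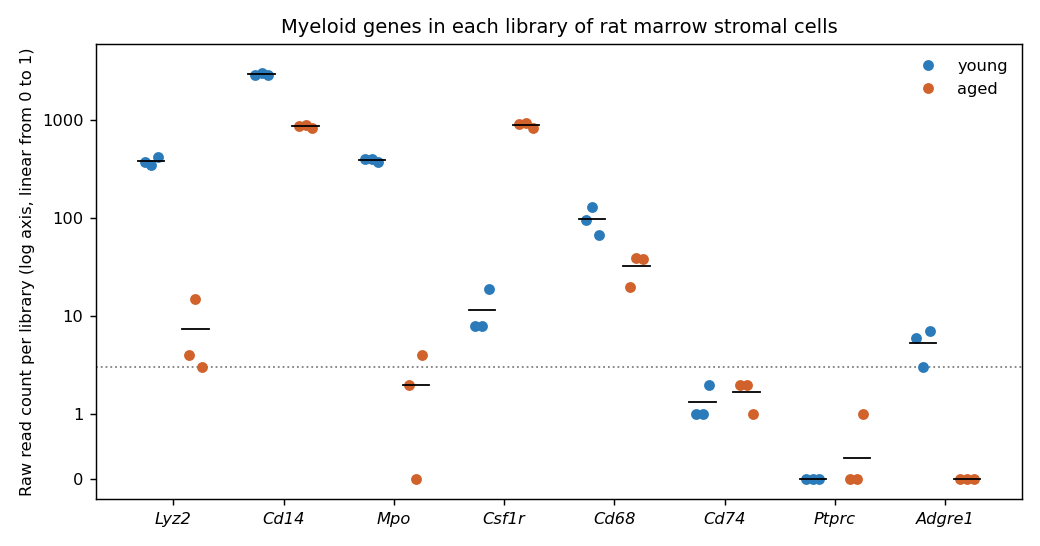
Raw read counts of the 8 genes (horizontal axis) in each library on a log axis that is linear from 0 to 1, young in blue and aged in orange, with a bar at each group's mean and a dotted line at 3 counts. Csf1r has 8 to 19 counts in young and 837 to 935 in aged libraries, whereas Lyz2 and Mpo go from 347 or more to 15 or fewer, and Ptprc has a single count in all 6 libraries.

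The sequences just upstream of the genes that carry the result are shown because PU.1 and C/EBP proteins, the transcription factors that set the myeloid programme, bind short motifs in such regions. They are the 250 bases before the RefSeq start site in assembly GRCr8, 5′ to 3′ on the gene's strand, with each PU.1 core (GAGGAA on either strand) in capitals. The Lyz2 stretch is chr7:54798012-54798261 (minus strand), the Mpo stretch chr10:73092152-73092401 (plus strand), the Csf1r stretch chr18:56834129-56834378 (plus strand) and the Cd14 stretch chr18:28611159-28611408 (minus strand).
Lyz2: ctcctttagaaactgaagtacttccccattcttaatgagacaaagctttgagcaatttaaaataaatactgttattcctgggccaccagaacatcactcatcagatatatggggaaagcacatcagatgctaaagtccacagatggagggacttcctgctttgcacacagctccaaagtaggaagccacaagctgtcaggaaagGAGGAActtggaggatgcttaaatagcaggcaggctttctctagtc
Mpo: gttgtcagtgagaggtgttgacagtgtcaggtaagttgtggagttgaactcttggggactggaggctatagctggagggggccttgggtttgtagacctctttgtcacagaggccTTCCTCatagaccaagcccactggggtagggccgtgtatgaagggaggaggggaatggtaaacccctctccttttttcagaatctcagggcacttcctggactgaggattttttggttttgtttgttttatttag
Csf1r: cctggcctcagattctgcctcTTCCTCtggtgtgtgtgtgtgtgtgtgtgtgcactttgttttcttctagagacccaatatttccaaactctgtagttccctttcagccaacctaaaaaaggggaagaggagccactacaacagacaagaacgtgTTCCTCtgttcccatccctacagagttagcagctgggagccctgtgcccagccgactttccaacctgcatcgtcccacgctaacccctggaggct
Cd14: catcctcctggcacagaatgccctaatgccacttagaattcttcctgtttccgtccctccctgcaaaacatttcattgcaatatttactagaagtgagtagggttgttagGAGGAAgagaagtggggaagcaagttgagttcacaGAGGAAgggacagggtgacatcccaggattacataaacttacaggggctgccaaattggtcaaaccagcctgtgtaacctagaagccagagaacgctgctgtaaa
All 8 members held the PU.1 core in this window, against 23.2% of 27457 promoters of the same length. All 8 also held the C/EBP motif TTNNGNAA on either strand, against 36.8% of promoters. Matches of different motifs may overlap, and a match is a description of the letters, not a bound site. In Lyz2 the single core began 46 bases before the start site and in Mpo 135 bases before it. In Csf1r there were matches beginning 229 and 95 bases before the start, and in Cd14 140 and 105 bases before it. The AP-1 motif TGANTCA was found in 1 member, Cd68, against 6.36% of promoters, and TATAAA in 0 of 8, against 13.1%. Members with lower and with higher levels in aged cells thus share the PU.1 and C/EBP letters in this window.

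Csf1r was the member with a higher level in aged cells. Young libraries held 8, 8 and 19 counts of it and aged libraries 925, 935 and 837. Every aged library was above every young one, and the aged libraries lay close together. In CPM the level went from 0.321 ± 0.182 to 21.8 ± 0.552 (SD, n = 3 each), a fitted log2 change of 6.08 (SE 0.18) or 67.5-fold. The TMM-scaled ratio of pooled counts was 68.2 (95% exact binomial interval 48.9 to 98.2). Over the alternative settings the log2 change ran from 5.84 without young replicate 2 to 6.62 without young replicate 3, the library with most of the few young counts.

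Mpo and Lyz2 went the other way. Mpo had 400, 399 and 372 counts in young libraries and 2, 0 and 4 in aged ones, or 10.7 ± 0.359 against 0.0503 ± 0.0513 CPM. The pooled ratio of young to aged was 220 (95% exact binomial interval 101 to 602) and the fitted log2 change -7.69 (SE 0.30). With so few aged counts the value depended on which aged library was kept, at -7.10 without aged replicate 2 and -8.64 without aged replicate 3. The peroxidase thus stood at a steady level in all 3 young libraries and at or near the counting limit in the aged ones.

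Lyz2 had 372, 347 and 422 counts in young and 4, 15 and 3 in aged libraries, or 10.4 ± 1.33 against 0.173 ± 0.149 CPM. Its log2 change was -5.85 (SE 0.28), 57.8-fold lower in aged cells, and aged replicate 2 held 15 of the 22 aged counts. Without that library the log2 change was -6.85. The neighbouring copy Lyc2, which encodes a closely related lysozyme, had 10, 25 and 17 counts in young and 0, 0 and 2 in aged libraries. How reads shared by the lysozyme copies were assigned is not given in the sources used here, so the split between Lyz2 and Lyc2 is uncertain.

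Cd14 had the most reads of the members over all libraries, at 2915, 3029 and 2910 counts in young and 867, 889 and 842 in aged libraries. The level was 80.7 ± 0.772 CPM in young and 21.0 ± 0.600 in aged cells, with a log2 change of -1.94 (SE 0.05), or 3.85-fold. The spread between libraries of a group was small beside that difference. Scaled by library size alone the log2 change was -1.61.

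Cd68 was sparser and more variable. It had 96, 130 and 68 counts in young and 20, 39 and 38 in aged libraries, and the groups did not overlap. The level was 2.66 ± 0.763 CPM in young and 0.784 ± 0.263 in aged cells, a log2 change of -1.76 (SE 0.31) or 3.4-fold. Without young replicate 2, the highest library and the one that stood apart, it was -1.54. For the other members that setting gave -5.94 for Lyz2, -1.96 for Cd14 and -7.71 for Mpo.

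The remaining 3 members were hardly seen. Ptprc was at 0 in 5 libraries and had 1 count in aged replicate 3. Cd74 had 1, 1 and 2 counts in young and 2, 2 and 1 in aged libraries. Both lay under the limit that a count of 0 allows, so no fold is given. Adgre1 had 6, 3 and 7 counts in young libraries and 0 in every aged one, at least 2.02-fold lower in aged cells against a floor of 3 counts per library. The pan-blood-cell marker and the invariant chain were thus not detectable above the limit in the same libraries in which Mpo reached 400 and Csf1r 935 counts.

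Other genes of the blood lineages were read from lists drawn up with earlier results of these data known. Of 35 listed macrophage and monocyte genes, 27 were matched and only 3 passed the low-count filter, of which Ncf1 and Ms4a7 rose and Slc11a1 fell. Slc11a1, a metal transporter of the phagosome, went from 11.1 ± 1.36 to 1.84 ± 0.572 CPM, a log2 change of -2.60 (edgeR adjusted p = 3.4e-10), and made up most of the young level of this list. Ncf1, a subunit of the phagocyte oxidase, had 0, 10 and 5 counts in young and 78, 29 and 47 in aged libraries. Its log2 change was 3.17, and it was 2.58 without young replicate 1 and 4.10 without young replicate 2. Ms4a7 had 0, 1 and 1 young and 13, 10 and 31 aged counts, and its log2 change of 4.37 became 3.68 without aged replicate 3. The summed level of the 27 genes was 11.4 to 14.2 CPM in young and 3.71 to 6.08 in aged libraries, and that of the 24 genes under the filter was 0.942 to 1.56 and 1.18 to 1.58 CPM. C1qa, Ccr2 and Ly86 had 0 counts in all 6 libraries. Tyrobp, the adaptor of many myeloid receptors, had 1, 3 and 1 counts in young and 0 in aged libraries, and Aif1 had 4, 6 and 8 and then 0. With no low-count filter 9 genes of the list were called and with DESeq2 6. Of all tested genes 65.6% and 70.3% were called in these settings.

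Genes of leukocyte signalling gave the same picture of a few abundant genes among many near 0. All 28 listed genes were matched, 7 passed the filter, and 3 rose, 2 fell and 2 were not called. Arhgdib, a regulator of small GTPases enriched in blood cells, fell from 77.1 ± 1.24 to 1.10 ± 0.379 CPM, 69.5-fold (edgeR adjusted p = 4.4e-18). Cd53, a tetraspanin, fell from 2.43 ± 0.750 to 0.405 ± 0.208 CPM. Its counts were 102, 110 and 56 in young and 7, 21 and 22 in aged libraries. Cd48, a ligand of lymphocyte receptors, rose 1.51-fold to 35.5 ± 1.86 CPM (edgeR adjusted p = 2.1e-07). The summed level of the 21 genes under the filter, among them Laptm5, Coro1a, Itgb2, Rac2 and Vav1, was 2.05 to 2.60 CPM in young and 1.97 to 2.18 CPM in aged libraries. Single genes in this sum moved both ways. Laptm5 had 4, 8 and 5 young and 2, 0 and 1 aged counts. Vav1 had 0, 2 and 0 young and 13, 16 and 8 aged counts. With no low-count filter 8 genes were called, as was so without young replicate 2. The shares of all tested genes called in these settings were 65.6% and 85.4%.

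**Figure D2:**
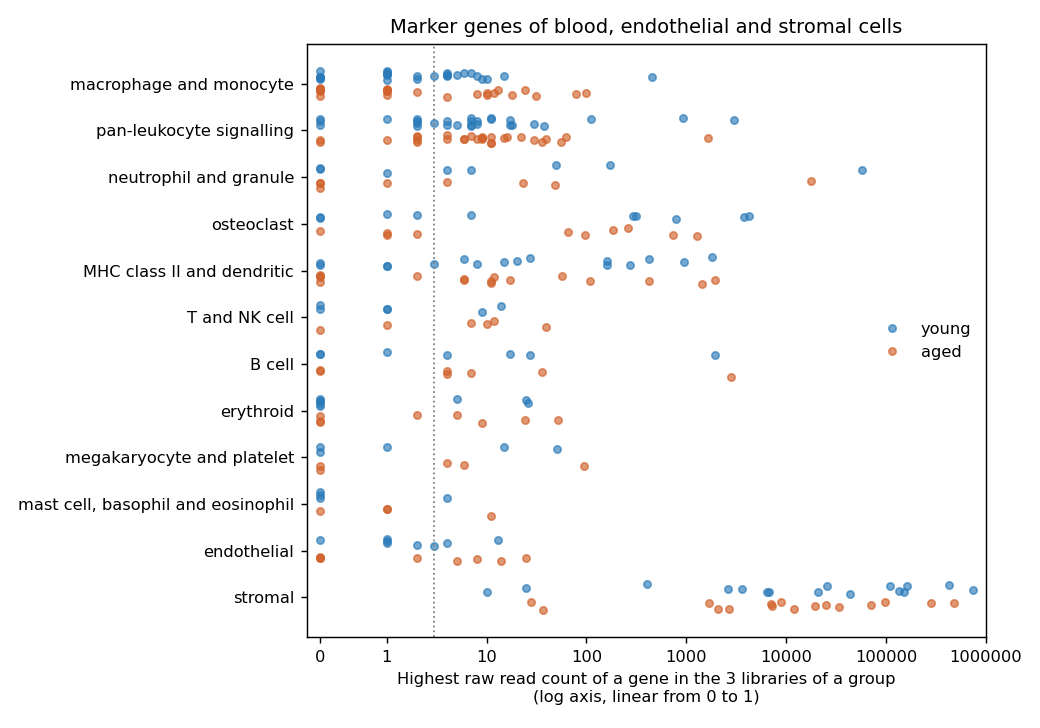
Each point is 1 listed gene, placed by its highest raw count among the 3 young (blue) or 3 aged (orange) libraries, on a log axis that is linear from 0 to 1, with 1 row per marker list and a dotted line at 3 counts. Most macrophage and leukocyte genes lie at low counts in both groups, while stromal genes reach 740206 counts.

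Transcription factors that direct the myeloid lineage were low or lower in aged cells, with 1 exception. Of 9 matched factors 5 passed the filter, 4 fell and Zbtb46 rose, with a median log2 change of -0.92. Irf8, which directs monocyte and dendritic cell fate, fell from 6.39 ± 1.06 to 3.38 ± 0.114 CPM, and Irf5 from 11.3 ± 1.10 to 6.90 ± 0.605 CPM. Spi1, which encodes PU.1, had 8, 11 and 9 counts in young and 2, 1 and 6 in aged libraries. Gfi1 had 0 counts in all libraries and Ikzf1 had 3 counts, all in young replicate 1. Zbtb46, a factor known from dendritic and endothelial cells, was at 2.44 ± 0.701 and 4.33 ± 0.830 CPM (edgeR adjusted p = 0.0017).

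Few neutrophil genes beside Mpo could be tested, mainly because most listed symbols were not matched. Only 8 of 23 listed symbols were matched, and 4 of these 8 passed the filter, with 3 lower and 1, Ngp, higher. Lcn2, the iron-trapping protein lipocalin 2, fell from 1495 ± 29.4 to 413 ± 5.81 CPM, 3.62-fold (edgeR adjusted p = 5.7e-19). Camp, the antimicrobial peptide cathelicidin, fell from 4.53 ± 0.412 to 0.885 ± 0.283 CPM. Ngp, another granule protein, had 0, 4 and 0 counts in young and 23, 22 and 15 in aged libraries. S100a8, one of the most abundant proteins of neutrophils, had 1, 4 and 7 counts in young and 4, 1 and 2 in aged libraries, and Csf3r, their growth factor receptor, had 1 count in all. The main granule proteases were on the list but among the symbols not matched, so their levels could not be read.

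Osteoclasts, the bone-resorbing relatives of macrophages, share Csf1r. Of 10 matched osteoclast genes 6 passed the filter, 5 fell and 1 rose. Ctsk, the collagen-digesting cathepsin, fell from 96.2 ± 3.78 to 29.7 ± 0.344 CPM, and Mmp9, a gelatinase, from 116 ± 5.56 to 5.55 ± 0.605 CPM. Oscar, a collagen receptor of osteoclasts, rose from 2, 1 and 7 counts to 49, 57 and 65, a log2 change of 3.88 that became 4.97 without young replicate 3. Calcr, Dcstamp, Ocstamp and Tnfrsf11a, which mark fused or committed osteoclasts, had at most 2 counts in any library. The higher level of Csf1r thus stood beside osteoclast genes that were mostly lower or near 0, and the part of osteoclasts in it was not tested beyond these values.

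Many genes of the other blood lineages and of endothelium were near 0, with exceptions given here. Of the listed symbols 6 of 15 were matched for T and NK cells, 7 of 11 for B cells and 8 of 13 for erythroid cells. For megakaryocytes and platelets 5 of 8 were matched, and for mast cells, basophils and eosinophils 4 of 12. In the T and NK cell list, Lck rose from 3, 9 and 4 to 39, 28 and 24 counts, and the other 5 matched genes did not pass the filter. In the B cell list, Ebf1, which is also a stromal transcription factor, rose 1.4-fold to 66.0 ± 2.17 CPM, Blnk fell and Jchain was not called. Blk, Cd8b, Hba-a2, Rhag, Tpsab1 and Emcn had 0 counts in all libraries. Pf4, the platelet chemokine, had 13, 12 and 15 young counts and 0 aged ones, at least 5.02-fold lower. In the same list Itga2b had 51, 48 and 47 young and 94, 60 and 42 aged counts and was not called. In the erythroid list Epor, which passed the filter only through the aged libraries, rose from 4, 5 and 2 to 18, 24 and 20 counts. Ahsp, with 22, 25 and 21 young and 29, 47 and 52 aged counts, was not called. Klf1, at 26, 13 and 10 young and 9, 5 and 4 aged counts, did not pass the filter. None of 4 matched mast cell, basophil and eosinophil genes passed the filter, and their summed level was 0.0831 to 0.106 CPM in young and at most 0.252 CPM in aged libraries. Of 8 endothelial genes only Tek passed and rose, from 2, 1 and 0 to 15, 25 and 10 counts. The part of blood cells in the levels of the 5 members above was not tested beyond these values.

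The growth factors that act through the CSF receptors were next. Of 9 matched ligand and receptor genes other than Csf1r, 8 passed the filter, 3 rose and 5 fell, and their median log2 change was -1.13. Csf1, the main ligand of Csf1r, rose from 1608 ± 19.5 to 2061 ± 7.94 CPM, 1.28-fold (edgeR adjusted p = 2.6e-10), and the other ligand, Il34, rose 1.72-fold from 1.74 ± 0.344 CPM. Kitlg, the stem cell factor, rose 12.1-fold to 59.7 ± 1.07 CPM. Csf3, which drives neutrophil production, fell 86.0-fold from 89.9 ± 2.72 to 1.04 ± 0.105 CPM, and Csf2 fell from 161, 131 and 102 counts to 2, 2 and 0. The shared receptor subunit Csf2rb had 130, 158 and 157 young counts and 0 aged ones, at least 55.7-fold lower, and its partner Csf2ra fell 3-fold. Ligand and receptor of the CSF1 axis were thus both higher in aged cells, while the ligands and receptors of the CSF2 axis were lower.

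Partners of Cd14 in sensing LPS did not follow it as a set. Of 13 matched genes 10 passed the filter, with 3 higher, 4 lower and 3 not called. The median log2 change was -0.05, and scaled by library size alone it was 0.28 with 6 genes higher and 3 lower. Tlr4, the receptor to which Cd14 passes LPS, rose from 23, 43 and 22 counts to 587, 647 and 552, or 17.9-fold (edgeR adjusted p = 1.8e-13). Its companion Ly96, which encodes MD-2, fell 1.38-fold, but was not called when scaled by library size alone (edgeR adjusted p = 0.16). Lbp, the LPS carrier, fell 3.04-fold from 58.1 ± 2.24 to 19.1 ± 1.06 CPM, and Tlr2, the receptor for bacterial lipoproteins, fell 19.7-fold from 118 ± 2.35 to 6.02 ± 0.379 CPM. Cd14, Lbp and Tlr2 were thus lower in aged cells while Tlr4 was higher.

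MHC class II genes, the partners of Cd74, were near 0 apart from a few. Of 16 matched genes of antigen presentation and dendritic cells 9 passed the filter, with 3 higher and 6 lower (4 and 4 when scaled by library size alone) and a median log2 change of -1.06. RT1-Bb, a class II beta chain, had 224, 246 and 271 counts in young and 0, 6 and 1 in aged libraries, a log2 change of -6.83 that became -8.75 without aged replicate 2. Its alpha chain partner RT1-Ba had 3, 1 and 0 young counts and 0 aged ones, and RT1-Da and RT1-DOb had 0 in all. Ciita, the master activator of class II genes, had 18, 17 and 20 counts in young and 6, 11 and 3 in aged libraries. RT1-DMa, the peptide-loading chain, rose 1.39-fold to 33.7 ± 2.20 CPM, and Cd40, a co-stimulatory receptor, fell 4.92-fold to 2.20 ± 0.507 CPM. RT1-Bb was thus present in young libraries without comparable counts of its alpha chain or of Cd74.

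**Figure D3:**
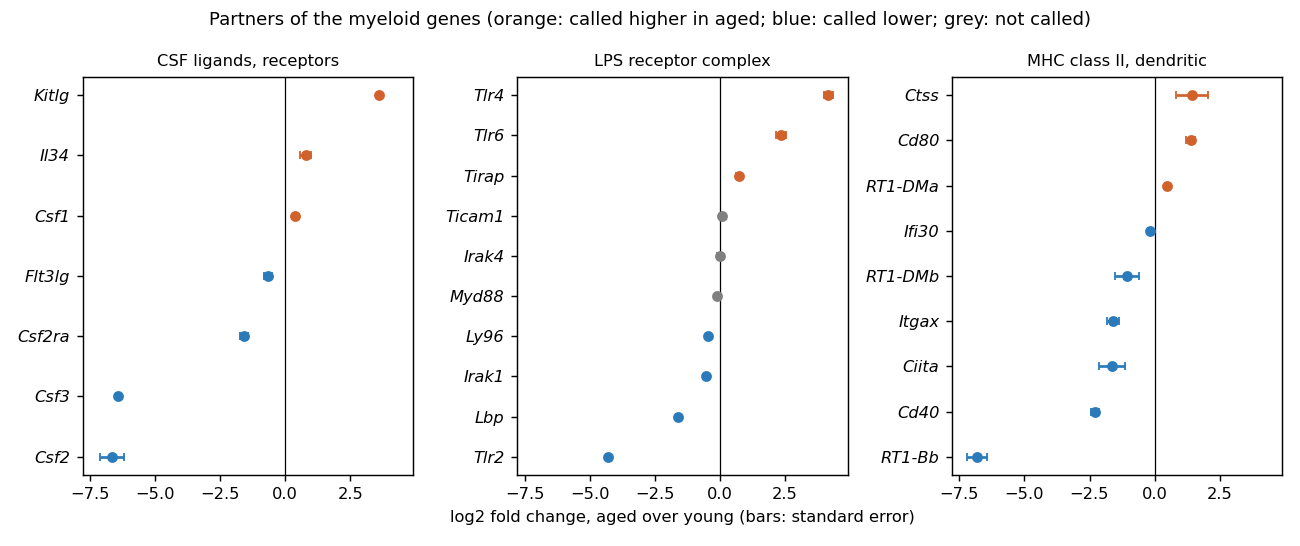
Fitted log2 fold change, aged over young, with its standard error for tested genes of the CSF, LPS receptor and MHC class II lists (vertical axes), orange where called higher, blue where called lower and grey where not called; Csf2rb, with 0 aged counts, is left out. Kitlg and Tlr4 lie farthest to the right, and Csf2, Csf3, Tlr2 and RT1-Bb farthest to the left. Csf2, RT1-Bb, RT1-DMb, Ciita and Ctss passed the low-count filter only through the group where they were high.

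Lysosomal genes, which share the compartment of Cd68, were expressed throughout and mostly lower in aged cells. Of 17 matched genes 16 passed the filter, 12 fell, 3 rose and 1 was not called (5 higher and 10 lower without TMM factors). The median log2 change was -0.59. Psap, the precursor of the saposins, fell 2.41-fold and Ctsd, the aspartic protease cathepsin D, fell 2.43-fold (edgeR adjusted p = 4.9e-17 and 1.4e-16). Lamp1, a relative of Cd68, fell 1.5-fold, whereas its relative Lamp2 rose 1.71-fold. The log2 change of Cd68, -1.76, lay below that of Lamp1, Psap and Ctsd, at -0.58, -1.27 and -1.28. Its SE was 0.31, and the differences between genes were not tested.

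Relatives of the other members were also read. Pxdn, a peroxidase of the matrix related to Mpo, fell 2.74-fold from 359 ± 1.06 to 131 ± 4.34 CPM. Adgre5, an adhesion receptor related to Adgre1, fell 1.62-fold to 17.6 ± 1.66 CPM, and Adgre4 had 0 young and 14, 2 and 12 aged counts. Of other receptor phosphatases related to Ptprc, Ptpra fell 1.98-fold to 73.0 ± 1.56 CPM and Ptprj rose 2.02-fold to 8.81 ± 0.434 CPM. Mif, a cytokine that binds the Cd74 protein, fell 4.1-fold to 79.0 ± 2.23 CPM.

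The genes beside each member were compared, since reads of adjoining genes can be shared where the strand setting is unknown. Neighbours were taken from the order of genes in RefSeq assembly GRCr8, and none of the nearest 2 counted genes on each side overlapped a member. Csf1r lies next to Pdgfrb, the receptor of platelet-derived growth factor and a stromal marker. Pdgfrb fell from 42450, 43357 and 41449 counts to 24535, 25241 and 22887, while Csf1r was higher. Csf1r counts were 0.0185% to 0.0458% of those of Pdgfrb in young libraries and 3.66% to 3.77% in aged ones. On its other side Hmgxb3 rose 1.17-fold and Slc26a2 rose 3.41-fold.

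Of the nearest 2 counted genes on each side of Mpo, Supt4h1, Tspoap1 and Mks1 were called lower in aged cells, as were 41.8% of all tested genes. Lpo is left out of these calls because it passed the filter only through the young libraries. The 4 such neighbours of Cd14 (Slc35a4, Apbb3, Tmco6 and Ndufa2) were called lower as well. Lpo, the lactoperoxidase gene adjacent to Mpo, had 50, 37 and 38 young counts and 0 aged ones, at least 15.7-fold lower. Tspoap1 on the other side fell 5.49-fold from 3.65 ± 0.163 to 0.661 ± 0.0581 CPM, and Mks1, a gene of primary cilia beyond Lpo, fell 4.01-fold from 13.1 ± 1.05 to 3.27 ± 0.406 CPM. Supt4h1, beyond Tspoap1, fell 1.67-fold. Mpdu1 and Eif4a1 beside Cd68 fell 1.98-fold and 2.03-fold. Beside Lyz2 and Lyc2 the gene Cpsf6 rose 2.28-fold and Yeats4 fell 1.90-fold.

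**Figure D4:**
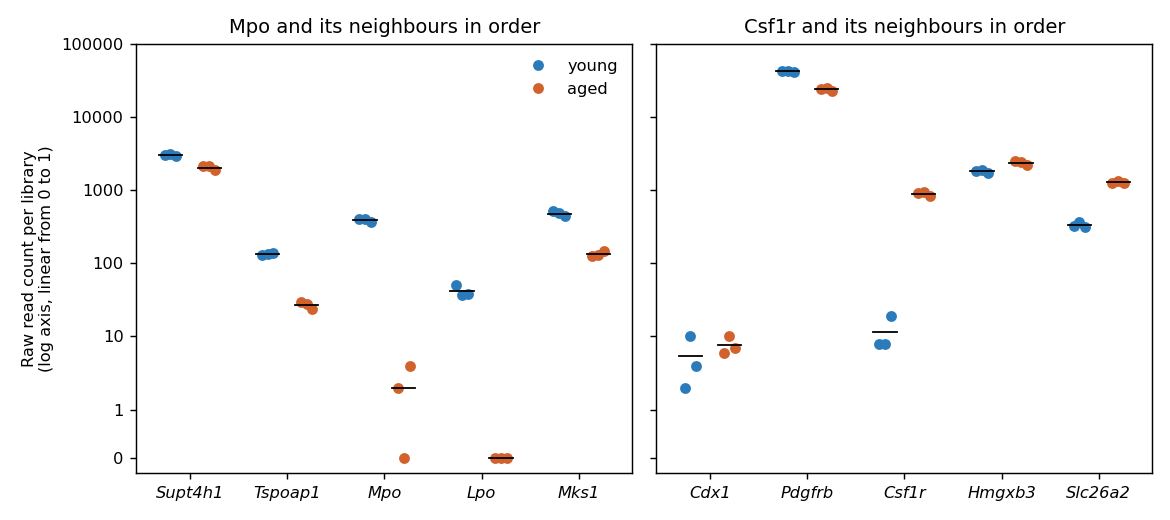
Raw counts per library, on a log axis that is linear from 0 to 1, of Mpo (left) and Csf1r (right) with the nearest 2 counted genes on each side in chromosome order, young in blue, aged in orange, bars at group means. All 5 genes around Mpo are lower in aged libraries, and Csf1r is higher in aged libraries where Pdgfrb is lower.

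For each member that passed the filter, the genes with the most similar profile were found as those with the smallest Euclidean distance over the 6 libraries in log2 CPM centred on each gene's mean. With 2 groups this distance mostly follows the size of the difference between them. The nearest to Cd14 was Cebpb (distance 0.0564), which encodes a C/EBP transcription factor and fell from 561 ± 14.1 to 150 ± 3.19 CPM. The nearest to Csf1r was Slc25a48 (distance 0.380), with 11, 9 and 19 young and 872, 955 and 816 aged counts. The nearest to Mpo was the matrix protease gene Mmp3 (distance 0.485), and the nearest to Lyz2 were Hr, Wfdc6a and the cell cycle gene Ccna2. The nearest to Cd68 were Polq and Dscc1, genes of DNA repair and replication, with Fcgbp. Dscc1 had 107, 137 and 92 counts in young and 20, 48 and 39 in aged libraries. Its order of libraries was like that of Cd68, which its choice by a small distance over the same libraries favoured.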

How the data were processed

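Poly(A) RNA-seq counts of 6 libraries were used, 3 young and 3 aged, grouped by the sample titles. The authors' deposited values are unnormalized counts, 1 row for each symbol. Read trimming, alignment and counting tools (fastp, HISAT2, HTSeq; versions unknown) come from the submitters' processing notes. Build, annotation, strandedness and read filters were not given in the sources used here, so how gene copies share reads is unknown. No deposited column lacked a sample (0 such columns).

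Counts were fitted with edgeR 4.0.16 in R 4.3.3: filterByExpr with its minimum count of 10, TMM scaling, and the quasi-likelihood F test of aged against young with group as the only term, adjusted by Benjamini-Hochberg over 14273 genes. CPM values use the TMM factors, and SEs are the change divided by the square root of F. Ratios of pooled counts carry 95% exact binomial intervals, and a group at 0 is set to 3 counts per library. The members and the 18 gene lists were chosen with earlier results of these data known. Named by rule were all members, in each list the 3 genes of highest level, the 2 of smallest p and those at 0, and the 3 nearest genes of each tested member. The nearest genes use log2 CPM with a prior count of 2. Other genes named were chosen after their values were seen. Promoters and gene order are from RefSeq, assembly GRCr8, matched by symbol for all 8 members. The procedure was tested on simulated data for aged against young with 13992 genes: it recovered 94% of 50 genes changed 1.5-fold and 98% of 50 changed 2-fold, and 7.98% of its calls were false. Only a small part of the genes was changed there, each with a mean of at least 50 counts. In the data 86.4% of tested genes were called, so these rates may not hold for this comparison or for sparse genes. Alternatives were scaling by library size alone, no low-count filter, DESeq2 1.42.0, limma-voom (limma 3.58.1), a replicate block and leaving out each library. Some listed genes are not reported here.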

Additional observations from a re-analysis of the deposited data

How the results depend on the processing

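Over 11 alternative settings the count of called genes stayed within 12111 to 13418, and the number of tested members higher in aged cells was 1 in each. Scaling by library size alone raised log2 changes by a median of 0.34, and 62.3% instead of 51.7% of called genes were then higher. The log2 change ran from -6.85 to -5.52 for Lyz2, -1.97 to -1.61 for Cd14, -8.64 to -7.10 for Mpo, 5.84 to 6.62 for Csf1r and -1.97 to -1.43 for Cd68. Under library size scaling the sign turned for Nfatc1 (0.10), Ifi30 (0.14), Cd44 (0.058), Pdgfra (0.12) and Myd88 (0.23), and without aged replicate 1 for Itga2b (-0.12, with 0.45 as the highest value when 1 library was left out). Of 913 values of 83 named genes, 897 kept their direction and side of the threshold.

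Counts of called list genes moved where few genes passed the filter. The erythroid list went from 1 called gene to 2 with library size scaling or DESeq2, 3 with no low-count filter, and 1 to 3 when single libraries were left out. The endothelial list went from 1 to 3 with no filter, 2 with DESeq2, and 1 to 2 when libraries were left out. The macrophage list went from 3 to 9 with no filter and 6 with DESeq2, the leukocyte list from 5 to 8 with no filter and 6 to 8 when libraries were left out, and the T and NK cell list from 1 to 2 with no filter. Of the 9 called MHC class II and dendritic genes, 7 were called with the replicate block, without RT1-DMb and Ctss, and 7 to 8 when libraries were left out. The unfiltered fit admits genes of a few counts. Of all genes tested in it 65.6% were called, against 70.3% with DESeq2 and 83.3% to 85.4% when single libraries were left out.

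Young and aged libraries of the same number did not deviate together (correlation over 14273 genes -0.013 to 0.0098). The titles state no pairing between them, and this correlation over all genes cannot show a link that touches few genes. With the replicate block 85.2% of tested genes were called instead of 86.4%, and the log2 change of Csf1r was 6.08 and that of Mpo -7.69. Of the 3 young libraries 1 correlated best with its own number.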
